A study of Mus musculus with 96 samples.

Results

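The cytokine and chemokine transcripts described here are those of Tnf, Il1a, Il1b, Il6, Ccl2, Ccl3, Ccl4, Ccl12, Cxcl2 and Tnfsf13b, 10 of the 54532 gene models in the deposited tables. They were chosen by name as the tumour necrosis factor, interleukin-1 and inflammatory chemokine genes. The rule uses no measured value, but it was written with earlier results of these data known. The study sorted microglia, the resident macrophages of the brain, as Fcrls+ CD11b+ Ly6C- cells and sequenced the RNA of 1000 cells per library with the Smart-seq2 protocol. The 96 libraries fall into 16 groups and come in 48 pairs, 1 from the hippocampus and 1 from the hemisphere, that carry the same sort number in their library names. Each pair was read as 1 wild-type mouse, which the labels do not state outright, and they do not say whether sort numbers mark days or batches. The groups after abdominal surgery were old mice (20 to 22 months; 7 at 6 h and 9 at 48 h) and young mice (3 to 5 months; 4 at each time). Their control groups were old mice (8 at each time) and young mice (4 at each time), all wild-type as well, and the labels do not say what the control mice underwent. No animal was sampled at both times.

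Microglia make these proteins as their first line of inflammatory signalling. Tumour necrosis factor and the interleukin-1 cytokines act on receptors that switch on NF-kB and the stress kinases, which in turn transcribe more cytokine and chemokine genes. The CC chemokines Ccl2 and Ccl12 attract monocytes through Ccr2, Ccl3 and Ccl4 attract macrophages and T cells, and Cxcl2 attracts neutrophils through Cxcr2. Il6 signals through a receptor chain that pairs with Il6st (gp130), and Tnfsf13b encodes BAFF, a survival factor for B cells. Several of these transcripts are short-lived, are held in check by Nfkbia, Zfp36 and Tnfaip3, and are known to be induced together with immediate early genes while brain tissue is dissociated.

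Of these genes, 4 lie close together on mouse chromosome 11 in the mm10 build. Ccl2 (chr11:82035571-82037453, plus strand) and Ccl12 (chr11:82101845-82103400, plus strand) form one pair, and Ccl3 (chr11:83647844-83649355, minus strand) and Ccl4 (chr11:83662584-83664683, plus strand) form the other, 13229 bases apart. Il1a (chr2:129299610-129309972) and Il1b (chr2:129364570-129371139) are neighbours on the minus strand of chromosome 2. Tnf lies at chr17:35199381-35202007 on the minus strand, Il6 at chr5:30013114-30019981, Cxcl2 at chr5:90903871-90905938 and Tnfsf13b at chr8:10006467-10039072, all 3 on the plus strand.

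Of the 5 genes that carry the age and region results, the promoter windows of Tnf, Ccl12, Ccl3 and Tnfsf13b are shown. The remaining gene, Ccl2, had no RefSeq window. Tnf and Ccl12 hold the same short motif, Tnfsf13b holds another and Ccl3 none of those searched. Each runs from 250 bases before to 50 bases after the transcription start in RefSeq on GRCm38.p6, 5′ to 3′ on the gene's own strand, with motif matches in capitals. The windows are Tnf at chr17:35201958-35202257, Ccl12 at chr11:82101595-82101894, Ccl3 at chr11:83649329-83649628 and Tnfsf13b, its first listed start, at chr8:10006217-10006516.
Tnf: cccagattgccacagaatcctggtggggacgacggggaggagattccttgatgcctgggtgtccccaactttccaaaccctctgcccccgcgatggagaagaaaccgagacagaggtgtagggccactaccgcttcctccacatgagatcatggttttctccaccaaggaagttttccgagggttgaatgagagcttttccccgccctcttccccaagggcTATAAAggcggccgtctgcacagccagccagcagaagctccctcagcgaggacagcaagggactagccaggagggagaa
Ccl12: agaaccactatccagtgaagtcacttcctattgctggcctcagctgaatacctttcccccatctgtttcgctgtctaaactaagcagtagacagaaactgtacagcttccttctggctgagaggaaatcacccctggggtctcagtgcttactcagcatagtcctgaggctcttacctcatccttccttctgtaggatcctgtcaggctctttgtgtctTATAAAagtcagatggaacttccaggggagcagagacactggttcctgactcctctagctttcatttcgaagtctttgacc
Ccl3: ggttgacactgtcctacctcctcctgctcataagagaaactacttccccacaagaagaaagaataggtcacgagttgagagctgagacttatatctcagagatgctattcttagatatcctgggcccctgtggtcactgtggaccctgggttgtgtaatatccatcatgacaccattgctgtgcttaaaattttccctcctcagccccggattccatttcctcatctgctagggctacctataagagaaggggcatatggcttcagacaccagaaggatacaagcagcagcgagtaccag
Tnfsf13b: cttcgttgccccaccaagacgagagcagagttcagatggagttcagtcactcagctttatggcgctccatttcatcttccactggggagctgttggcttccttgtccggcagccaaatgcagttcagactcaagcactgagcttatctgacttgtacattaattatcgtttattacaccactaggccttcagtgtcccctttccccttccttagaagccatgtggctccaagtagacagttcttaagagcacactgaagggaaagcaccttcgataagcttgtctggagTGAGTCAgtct

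The letters of 3 motifs were searched on both strands in 8 of the 10 genes that the RefSeq table holds, the TATA box as TATAAA, an AP-1 site as TGANTCA and a C/EBP site as TTGCNNAA. No match of one motif overlaps a match of another in the printed windows. TATAAA was present in 4 of the 8 genes, beginning at base -29 in Tnf, -31 in Ccl12, -32 in Il1a and -31 in Il1b, and in 13.569% of the 32544 promoter windows of the same length. TGANTCA was present in Il1a, Il6 and Tnfsf13b, where it begins at base 40 after the start, and in 7.789% of all windows. TTGCNNAA was present in Il6 and in the other listed window of Tnfsf13b, and in 10.819% of all windows. The Ccl3 window held none of these letters. Ccl2 and Ccl4 are named here without a promoter.

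Library totals ran between 1874168 and 3778939 estimated counts (median 2703893), of which the 15 largest gene models took 53.05% to 81.2%. Microglial markers were high in every library, with a summed level of 3538 to 10740 CPM (counts per 1e6) over 9 genes. Of the 10 neutrophil markers, 9 were at 0 in more than 48 of the 96 libraries. The other, Cxcr2, averaged 15.5 CPM, and their sum reached 197.6 CPM in a library of old surgery hemisphere at 6 h. Summed B cell markers had a median of 97.3 CPM (40.8 to 404.4), most of it Ighm. Summed astrocyte markers had a median of 49.8 CPM (25.5 to 153.6). At 6 h, 6 libraries have unevenly spaced low values. The differences of Tnfsf13b between ages and of Il1a after surgery in the hippocampus at 6 h are given with and without them. Other levels, fold changes and correlations at 6 h include these libraries unless stated otherwise. Because these are bulk libraries, fewer cells of a type and less RNA per cell cannot be told apart.

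Compared per kilobase of exon, the CC chemokines were the most abundant of the 10 transcripts. Averaged over the 16 groups, Ccl3 stood at 94.4 CPM per kb, Ccl12 at 64.4, Ccl4 at 52.4 and Ccl2 at 23.1. Il1a followed with 10.2 and Tnf with 8.90 CPM per kb. Tnfsf13b had 1.30, Il6 0.869, Il1b 0.439 and Cxcl2 0.167 CPM per kb. For scale, the median was 0.982 CPM per kb over the 21597 gene models with a count in at least 48 libraries. Neighbours in this order were separated unevenly: Ccl4 exceeded Ccl2 in 91 of 96 libraries and Ccl2 exceeded Il1a in 92, whereas Il1a exceeded Tnf in 60 and Ccl12 exceeded Ccl4 in 69. Il1a and Tnf are thus not separated beyond the spread of the libraries. The group with the highest mean was old control hemisphere at 48 h for 8 of the 10 genes, all but Il6 and Cxcl2.

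**Figure D1:**
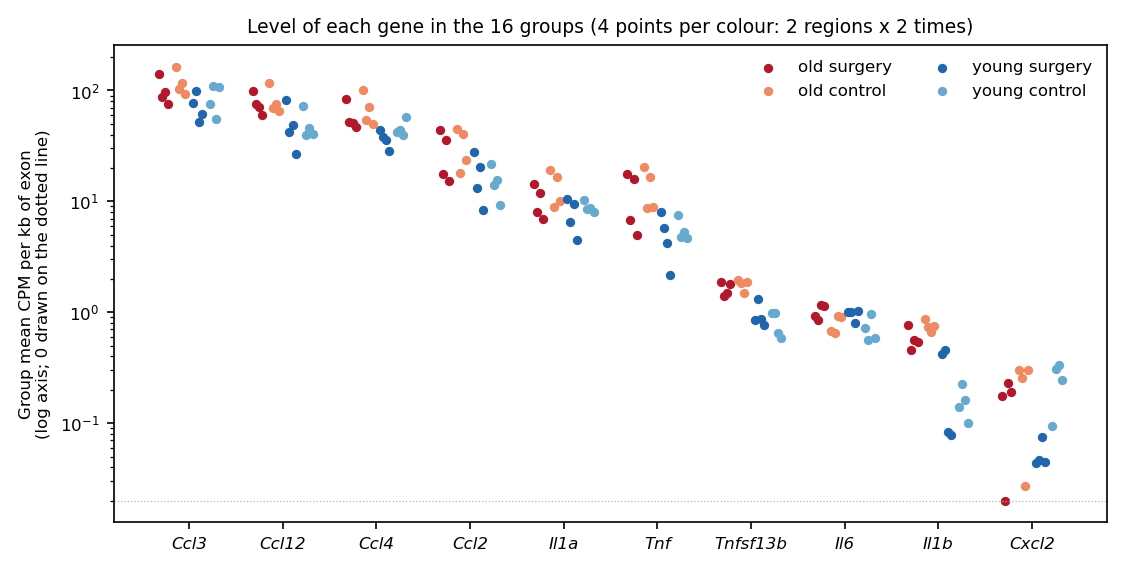
Mean level of the 10 transcripts in each of the 16 groups, in CPM per kb of exon on a log axis, with groups coloured by age and treatment and values of 0 drawn on the dotted line. The chemokines Ccl3, Ccl12, Ccl4 and Ccl2 lie above Il1a and Tnf, and Il1b and Cxcl2 are the lowest.

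Il1b, Il6 and Cxcl2 were too low to pass the filter on counts, so the tests below cover the other 7 genes. Il1b, the secreted interleukin-1 that caspase-1 matures, summed to 251 counts over the 96 libraries and was at 0 in 27 of them. It was at 0 in 11 of 64 old libraries, against 16 of 32 young libraries, with 1.29 ± 1.18 CPM in old and 0.397 ± 0.730 CPM in young mice (SD over libraries). Its group mean was higher in old than in young mice in 7 of the 8 pairs of groups. In a fit without the filter, the lowest adjusted p of these 3 genes in any comparison was 0.276 (edgeR, Benjamini-Hochberg), for Il1b between old and young mice in the hippocampus at 6 h.

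Il6 was present at 1 to 21 counts in all 96 libraries. It averaged 2.20 ± 1.13 CPM in old and 2.02 ± 0.991 CPM in young libraries, a difference smaller than its spread. Cxcl2 was at 0 in 64 libraries. In the hemisphere at 6 h it was at 0 in all 7 old libraries after surgery, where 3 counts over the group would be 0.158 CPM, against 5 of 8 old control libraries at 0 and a control mean of 0.530 CPM. Reads of Il1b cannot be told apart from those of the overlapping antisense model Il1bos, which averaged 13.77 counts against 2.615 for Il1b, since the counting is not stated to use strand. Gm14023, which overlaps Il1a, averaged 16.83 counts against 57.11 for Il1a.

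The called differences of these genes between old and young mice were those of Tnf, Tnfsf13b and, at 48 h, for some chemokines. The question is whether microglia of old mice carry more cytokine transcript than those of young mice. In the hemisphere at 48 h Tnf ran from 8.41 through a median of 32.3 to 45.4 CPM in old mice after surgery, against 9.92, 13.7, 13.1 and 15.6 CPM in young mice after surgery. In controls it ran from 21.5 through 30.8 to 50.4 CPM in old mice, against 16.4, 10.6, 8.27 and 14.1 CPM in young mice. All 8 old controls lay above all 4 young controls, and over both treatments 15 of 17 old libraries lay above all 8 young ones.

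The hippocampus showed the same order for Tnf at 48 h. After surgery Tnf ran from 3.41 through a median of 29.4 to 42.7 CPM in old mice, against 13, 6.57, 3.64 and 4.43 CPM in young mice. In controls it ran from 16.9 through 25.4 to 49.7 CPM in old mice, against 8.59, 10.1, 12.5 and 3.25 CPM in young mice. Again 15 of 17 old libraries lay above all 8 young ones. The 2 old mice within the young range were replicates 2 and 3 after surgery in both regions. The same 2 mice had 53.4 and 40 CPM of Ccl3 in the hemisphere, where the median of their group was 100.5 CPM.

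With the effect averaged over both treatments, Tnf was higher in old mice by 1.29 ± 0.25 in the hemisphere and 1.77 ± 0.32 in the hippocampus at 48 h (log2 fold change ± SE; 95% interval 0.784 to 1.80 and 1.10 to 2.43; edgeR quasi-likelihood, Benjamini-Hochberg adjusted p = 0.00703 and 0.00521). Averages over treatments were added after the data were seen. Within a single treatment, edgeR called 0 of the 7 tested genes between ages at 48 h. In each of the 2 averaged comparisons 3 of the 7 tested genes were called, meaning an adjusted p under 0.05, all higher in old mice. The share of all genes called was 0.637% in the hemisphere and 0.651% in the hippocampus. Those shares are 78 genes in each region, and fits that left out a single animal called 53 to 99 genes in the hemisphere and 38 to 216 in the hippocampus. All 7 fold changes were positive in both, with a median of 0.98 in the hemisphere and 0.96 in the hippocampus, beside 0.01 and -0.01 over all genes tested. Leaving out any single animal kept Tnf called in 25 of 25 fits in each region. With the old mice limited to the range of sort numbers that the young mice span, Tnf still passed, at 1.24 (adjusted p = 0.0143) in the hemisphere and 1.61 (adjusted p = 0.0205) in the hippocampus. Without the filter on low counts it lost the call in the hippocampus (1.81, adjusted p = 0.0511). With the replicate number as a block, a pairing the labels do not give, Tnf was not called in the hemisphere (0.95, adjusted p = 0.142) or the hippocampus (1.51, adjusted p = 0.136).

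**Figure D2:**
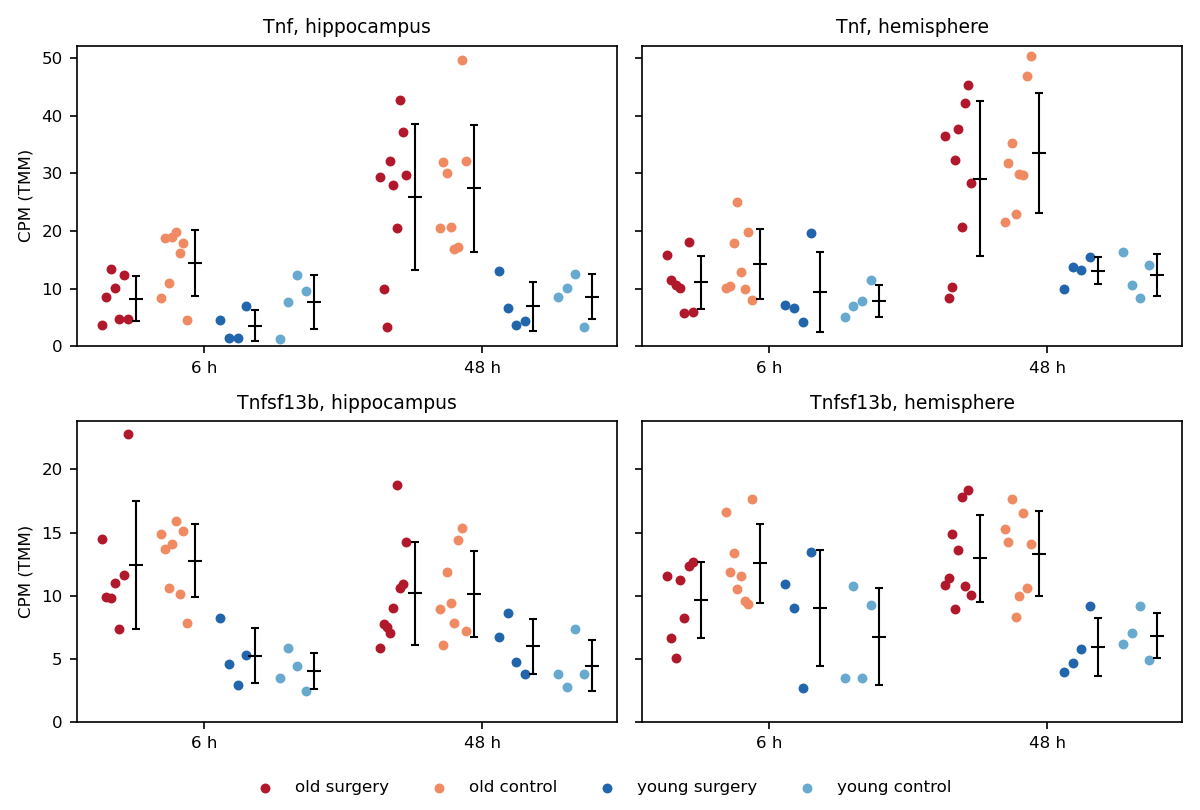
Tnf and Tnfsf13b in CPM for every library, by region and time, with old groups left of young groups and bars for mean ± SD. At 48 h the old libraries of Tnf lie mostly above the young ones in both regions, and in the hippocampus at 6 h all 8 old controls of Tnfsf13b lie above all 4 young controls.

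Tnfsf13b, the gene for BAFF, had the other called difference seen in both regions at 48 h. In the hemisphere it ran from 8.91 through a median of 11.4 to 18.4 CPM in old mice after surgery, against 3.97, 4.70, 5.78 and 9.17 CPM in young mice after surgery. The controls there ran from 8.29 through 14.2 to 17.7 CPM in old mice, against 6.16, 7.05, 9.19 and 4.92 CPM in young mice. Over both treatments 15 of 17 old libraries lay above all 8 young ones, and the averaged difference was 1.06 ± 0.19 (0.670 to 1.45; edgeR adjusted p = 0.00384). In the hippocampus at 48 h, 10 of 17 old libraries lay above all 8 young ones, and the difference was 0.97 ± 0.23 (adjusted p = 0.0462). That call was kept in 9 of 25 fits that left out a single animal, with adjusted p up to 0.125 in the rest: it was lost without old control replicates 1, 3, 4, 6, 7 or 8, old surgery replicates 5 to 9, young control replicates 1, 2 or 4, or young surgery replicates 3 or 4.

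At 6 h Tnfsf13b was the only one of the 7 tested genes called between ages, and only in the hippocampus. It ran from 7.37 through a median of 11.03 to 22.8 CPM in old mice after surgery, against 8.20, 4.61, 2.94 and 5.26 CPM in young mice after surgery. In controls it ran from 7.86 through 13.9 to 15.9 CPM in old mice, against 3.49, 5.86, 4.40 and 2.43 CPM in young mice. All 8 old controls lay above all 4 young controls. The lowest young control values, 2.43 and 3.49 CPM, came from uneven libraries (replicates 4 and 1). The averaged difference was 1.47 ± 0.23 (0.988 to 1.95; adjusted p = 0.00439), where 0.102% of all genes were called. Among controls alone it was 1.71 ± 0.33 (adjusted p = 0.0398), where 0.0584% of all genes were called. The uneven libraries of this fit are young control replicates 1 and 4 and old surgery replicates 5 and 6. Without them the averaged difference lost its call (adjusted p = 0.0681), and so did the difference among controls (1.33, adjusted p = 0.559). The averaged call held in 23 of 23 fits that left out a single animal, and the call among controls in 8 of 23, with adjusted p of 0.0253 to 0.211. Within the sort numbers of the young mice, the averaged difference had adjusted p = 0.186, and that in the hemisphere at 48 h had adjusted p = 0.121.

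Of the chemokines, Ccl3 in the hemisphere and Ccl2 in the hippocampus were called between ages at 48 h. Ccl3 ran from 40 through 100.5 to 170.6 CPM in old mice after surgery, against 61.8, 51.7, 69.4 and 55.8 CPM in young mice after surgery, in the hemisphere. Its controls there ran from 78.1 through 111 to 169 CPM in old mice, against 39.0, 106.6, 37.2 and 48.5 CPM in young mice. Young control replicate 2 lay within the range of the old controls. The difference was 0.98 ± 0.23 (adjusted p = 0.0368), and leaving out single animals kept the call in 14 of 25 fits. The call was lost without old control replicates 2, 7 or 8, old surgery replicate 5, young control replicates 1, 3 or 4, or any of the 4 young mice after surgery, with adjusted p up to 0.139.

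Ccl2 in the hippocampus ran from 13.6 through 39.7 to 69.6 CPM in old mice after surgery, against 36.3, 19.2, 19.3 and 17.4 CPM in young mice after surgery. Its controls ran from 21.9 through 51.6 to 69.0 CPM in old mice, against 13.4, 25.01, 20.4 and 11.9 CPM in young mice. The groups overlapped, with 11 of 17 old libraries above all 8 young ones. The difference was 1.07 ± 0.24 (adjusted p = 0.0343), kept in 15 of 25 fits that left out a single animal. It was lost without old control replicates 1, 4, 7 or 8, old surgery replicate 1, young control replicates 1 or 4, or young surgery replicates 2, 3 or 4, with adjusted p up to 0.105. Il1a, which encodes the interleukin-1 released from damaged cells, missed the threshold in the hemisphere at 0.67 ± 0.16 (adjusted p = 0.0511), as did Ccl4 at 1.09 ± 0.27 (adjusted p = 0.0555). Ccl12 was 0.47 ± 0.16 in the hemisphere and 0.59 ± 0.24 in the hippocampus at 48 h, neither called. Ccl3 in the hippocampus was 0.96 ± 0.25 (adjusted p = 0.0737). Within the sort numbers of the young mice, Ccl3 in the hemisphere gave 0.77 (adjusted p = 0.263) and Ccl2 in the hippocampus 0.98 (adjusted p = 0.162).

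No test set the age differences at 6 h against those at 48 h, because sort numbers do not overlap between the times. Ccl3 differed between ages at 6 h by -0.12 ± 0.22 in the hemisphere (-0.582 to 0.340) and 0.04 ± 0.29 in the hippocampus, and Ccl4 by 0.36 ± 0.24 in the hemisphere and 0.26 ± 0.33 in the hippocampus, none called. Ccl12 gave 0.81 ± 0.21 in the hemisphere at 6 h (0.385 to 1.24, edgeR adjusted p = 0.0948), where edgeR called 0 of the 7 genes and 0.392% of all genes. Ccl12 was the 1 of the 7 with an unadjusted p under 0.05 there, as had 1129 of 12760 genes, and DESeq2 called Ccl12. The young libraries were tight there, with 21.3 to 23.5 CPM after surgery and 19.2 to 23.2 CPM in controls, and 13 of 15 old libraries lay above all 8 of them. Taken within one treatment, the other age comparisons called 0 of the 7 genes with edgeR. DESeq2 called Tnfsf13b in the hemisphere and Tnf in the hippocampus after surgery, and Tnf in the hemisphere of controls, all at 48 h. DESeq2 also called more genes in all, with 62 after surgery in the hemisphere at 48 h, where edgeR called 14. With edgeR, the share of all genes called after surgery was 0.00784% in the hemisphere and 0% in the hippocampus at 6 h. At 48 h the edgeR share was 0.114% in the hemisphere and 0.0834% in the hippocampus. In controls it was 0.0784% in the hemisphere at 6 h, 0.0898% in the hemisphere at 48 h and 0.0834% in the hippocampus at 48 h. After surgery the unadjusted p was under 0.05 for 1 of the 7 genes in the hemisphere at 6 h and for 4 in each of the other 3 comparisons. Over all genes tested it was under 0.05 for 760 of 12760 in the hemisphere and 919 of 13703 in the hippocampus at 6 h. At 48 h it was under 0.05 for 775 of 12250 in the hemisphere and 1352 of 11985 in the hippocampus. In controls the unadjusted p was under 0.05 for 3 of the 7 genes in the hemisphere at 6 h. It was so for 7 in the hemisphere at 48 h and 5 in the hippocampus at 48 h. Over all genes those counts were, in the same order, 867 of 12760, 809 of 12250 and 948 of 11985.

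Among the monocyte markers, Lyz2, which encodes lysozyme, stood out in the same libraries. Summed over 8 genes they had a median of 81.01 to 134.8 CPM in the 8 old groups, against 45.1 to 62.6 CPM in the 8 young groups, and Lyz2 alone held 75.6 CPM on average over all libraries. Lyz2 was higher in old mice at 6 h, by 1.13 in the hemisphere (adjusted p = 0.0016) and 1.01 in the hippocampus (adjusted p = 0.00508), and was not called at 48 h, with 0.92 in the hemisphere (adjusted p = 0.057) and 0.56 in the hippocampus (adjusted p = 0.203). Hp was at 0 in more than 48 of the 96 libraries, and Ly6C+ cells were gated out of the sort. Their part in the age differences was not tested. Of the 9 microglial markers, all 9 had negative fold changes between ages in the hemisphere at 48 h (median -0.21, none called) and 3 of 9 in the hippocampus at 48 h (median 0.17, none called). Ccr2, the monocyte marker that binds Ccl2, gave 0.30 in the hemisphere (adjusted p = 0.969) and -0.12 in the hippocampus (adjusted p = 0.825) at 48 h.

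Genes that act with these cytokines were counted in the averaged age comparisons, where 0.102% to 0.651% of all genes were called. Of the receptors and cofactors, 9 to 11 of 15 were tested and none was called between ages in either region or time with treatments averaged. The 7 tested of 9 processing and release genes, such as Adam17 and Casp1, gave no call either. Among 24 other inflammatory cytokines and chemokines, 6 or 7 of which were tested, Cxcl16, a transmembrane chemokine for Cxcr6, was higher in old mice by 0.59 ± 0.14 in the hemisphere at 48 h (adjusted p = 0.0318), by 0.90 ± 0.20 in the hemisphere at 6 h (adjusted p = 0.0442) and by 0.66 ± 0.15 in the hippocampus at 48 h (adjusted p = 0.027). Ccl6, another CC chemokine, was higher by 0.91 ± 0.17 in the hippocampus at 48 h (adjusted p = 0.00795). Of 22 immediate early and stress genes, 19 to 21 of which were tested, the chaperone gene Hspa1a was higher in old mice in the hemisphere at 48 h, at 1.13 (adjusted p = 0.0157). The AP-1 gene Jund was lower in the hippocampus at 48 h, at -0.77 (adjusted p = 0.0401).

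With edgeR, surgery gave no called difference for any of the 7 tested genes, at either time, in either region, in either age or with both ages averaged. The unadjusted p was under 0.05 for Il1a and Tnf with ages averaged in the hippocampus at 6 h, for Il1a there in each age, and for Il1a in the hemisphere of old mice at 48 h, and for no other. Of 13703 genes tested in the hippocampus at 6 h, 989 had one that low with ages averaged, 1075 in young and 1137 in old mice. In the hemisphere of old mice at 48 h, 715 of 12250 genes did. Of the 7 genes, DESeq2 called Il1a alone, with ages averaged in the hippocampus at 6 h. At 6 h the share of all genes that edgeR called in the hemisphere was 0.337% in old and 0.0627% in young mice. In the hippocampus it was 0.0876% in old and 0.0365% in young mice. The averaged comparisons gave 0.509% in the hemisphere and 0.343% in the hippocampus. At 48 h edgeR called 0% of all genes after surgery in every comparison, where 432 to 733 genes had an unadjusted p under 0.05 and DESeq2 called 0 to 3. The averaged fold changes at 48 h ran from -0.20 to 0.16 in the hemisphere and from -0.32 to 0.23 in the hippocampus, and their 95% intervals all lay between -0.958 and 0.694.

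The values behind Tnf at 48 h show the same lack of separation. In the hemisphere the mean was 29.1 ± 13.4 CPM after surgery and 33.5 ± 10.4 CPM in controls for old mice (n = 9 and 8), and 13.1 ± 2.35 CPM after surgery and 12.3 ± 3.62 CPM in controls for young mice (n = 4 each). In the hippocampus it was 25.9 ± 12.6 CPM after surgery and 27.4 ± 11.1 CPM in controls for old mice. The groups overlapped in both regions. Whether the effect of surgery differed between ages was tested as an interaction, which gave 0 of 7 called and no gene of the 7 with an unadjusted p under 0.05 in any of the 4 fits, beside 0% of all genes called. DESeq2 also called 0 of the 7 in each.

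The gene closest to the threshold was Il1a in the hippocampus at 6 h. It had 6.97, 8.40, 10.3 and 9.87 CPM in young mice after surgery, against 11.2, 15.8, 22.6 and 13.8 CPM in young controls. All 4 after surgery lay below all 4 controls. The lowest of these controls, 11.2 and 13.8 CPM, came from uneven libraries (replicates 1 and 4). In old mice it ran from 9.83 through 13.5 to 16.95 CPM after surgery, against 14.9 through 19.1 to 27.0 CPM in controls, and 4 of the 7 after surgery lay below all 8 controls.

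Averaged over ages, Il1a gave -0.68 ± 0.16 in the hippocampus at 6 h (-1.003 to -0.358; edgeR adjusted p = 0.0544), which is not a call. DESeq2 called it (adjusted p = 0.00843), as did the fit without the uneven libraries of this region (-0.83, adjusted p = 0.031). It was not called with limma voom (adjusted p = 0.0932), without the filter (adjusted p = 0.292) or within the sort numbers of the young mice (-0.62, adjusted p = 0.514). Leaving out single animals gave -0.75 to -0.56 and a call in 5 of 23 fits. Tnf there had 8.22 ± 3.93 CPM after surgery and 14.5 ± 5.71 CPM in controls for old mice, and 3.56 ± 2.67 CPM after surgery and 7.68 ± 4.67 CPM in controls for young mice, with a difference of -0.95 ± 0.36 (adjusted p = 0.493). The other differences there were -0.55 ± 0.29 for Ccl3, -0.54 ± 0.33 for Ccl4, -0.35 for Ccl12, -0.35 for Ccl2 and 0.18 for Tnfsf13b. In the hemisphere at 6 h the Il1a difference was -0.29 ± 0.19, and the 95% intervals of all 7 genes there included 0.

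**Figure D3:**
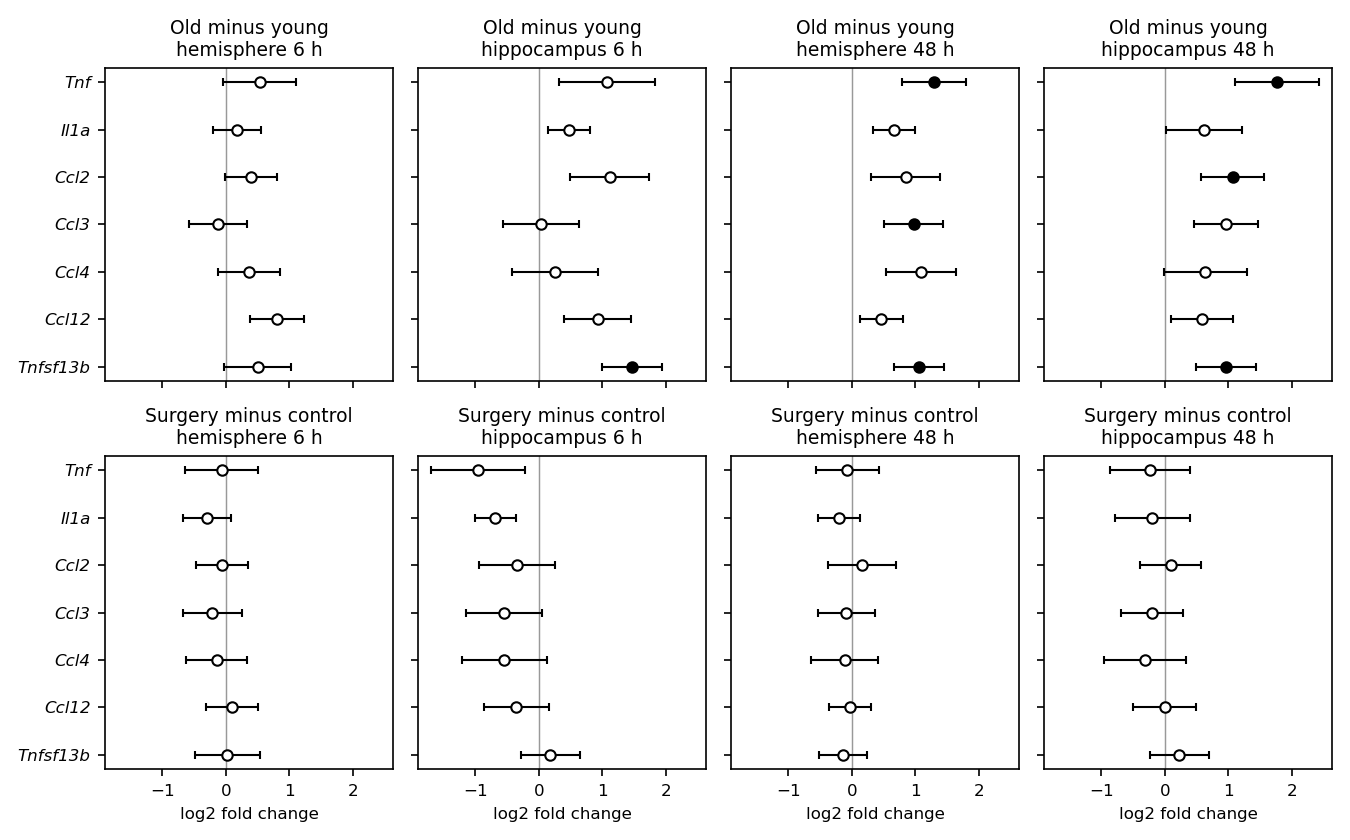
Log2 fold change with its 95% interval for the 7 tested genes, old minus young above and surgery minus control below, by region and time, with filled points where the adjusted p is under 0.05. The filled points are 3 in each region at 48 h and Tnfsf13b in the hippocampus at 6 h for age, and there are none for surgery.

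A single gene of the receptor and cofactor list was called after surgery. Il6st, the shared signalling chain of the Il6 receptor family, was lower after surgery at 6 h by 0.96 in the hemisphere (adjusted p = 0.0138) and by 0.91 in the hippocampus (adjusted p = 0.0163) on the log2 scale, with ages averaged. It was one of 15 receptors and cofactors, 11 of which were tested, and no other was called in the averaged comparisons at 6 h. In the immediate early and stress list 18 of 21 genes were negative at 48 h in each region, and none was called. The list medians were -0.16 in the hemisphere and -0.18 in the hippocampus. Over all genes, the medians of the comparisons of surgery with control at 48 h lay between -0.013 and 0.028. This count of signs is a description and not a test.

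The regions were compared within mice, paired by the shared sort number. At 48 h Ccl3 and Ccl12 were lower in the hippocampus than in the hemisphere of the same mouse, and all 7 fold changes were negative. Only 5 of 13473 genes passed (0.0371%), and all 5 were lower in the hippocampus. That count was 0 to 13 when a single mouse was left out, 27 with DESeq2 and 86 without the filter. Ccl3 ran from 19.1 through a median of 63.5 to 155 CPM in the hippocampus, against 37.2 through 100.5 to 170.6 CPM in the hemisphere of the 25 mice. The ranges overlap between mice, yet Ccl3 was lower in the hippocampus in 25 of 25 mice, with 68.5 ± 35.5 CPM in the hippocampus and 97.3 ± 44.1 CPM in the hemisphere.

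The difference for Ccl3 was -0.53 ± 0.09 (-0.715 to -0.337; edgeR with the animal as a block, adjusted p = 0.0169). Ccl12 ran from 7.49 through 36.5 to 53.7 CPM in the hippocampus, against 23.0 through 50.9 to 75.5 CPM in the hemisphere, and was lower in the hippocampus in 22 of 25 mice. Its difference was -0.70 ± 0.12 (-0.936 to -0.454; adjusted p = 0.0169), the first of all 13473 genes by p. Within groups, Ccl3 was lower in the hippocampus in 9 of 9 old mice after surgery, 8 of 8 old controls, 4 of 4 young mice after surgery and 4 of 4 young controls. Each of the 2 calls held in 20 of 25 fits that left out a single mouse, and both were lost without young surgery replicates 2, 3 or 4 or young control replicates 2 or 4, with adjusted p up to 0.1. With the 15 mice whose sort numbers lie in the young range, the differences were -0.45 for Ccl3 (adjusted p = 0.722) and -0.65 for Ccl12 (adjusted p = 0.599).

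**Figure D4:**
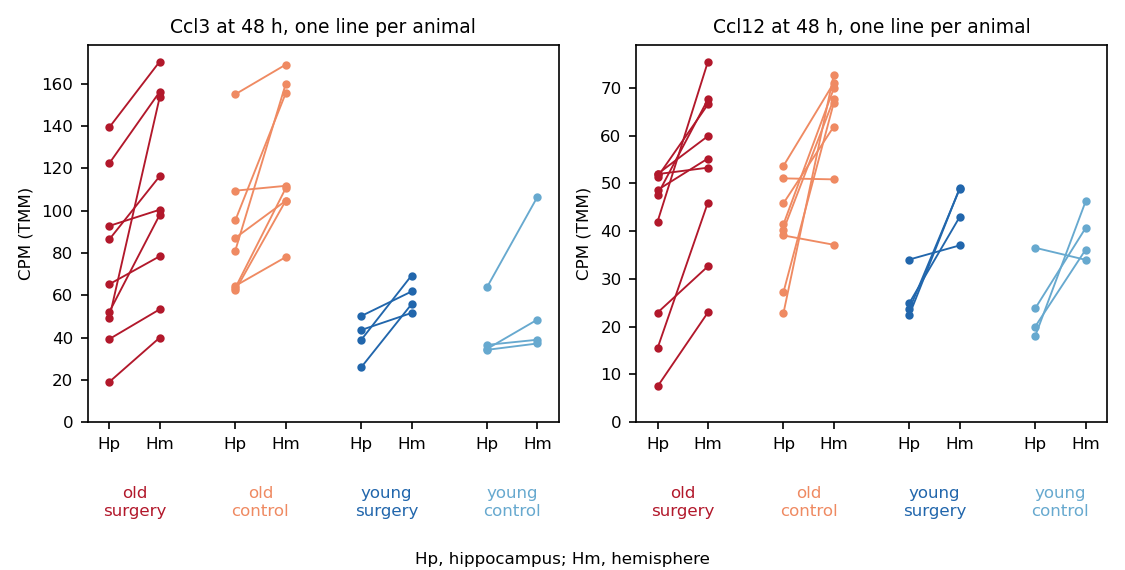
Ccl3 and Ccl12 at 48 h in CPM, hippocampus left and hemisphere right, with a line for each mouse coloured by group. The Ccl3 line is lower in the hippocampus in 25 of 25 mice and the Ccl12 line in 22 of 25.

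The other 5 genes gave -0.54 for Tnf, -0.45 for Ccl4, -0.36 for Tnfsf13b, -0.35 for Ccl2 and -0.34 for Il1a at 48 h, each with an unadjusted p under 0.05 and none called by edgeR. Over all genes tested, 714 of 13473 had an unadjusted p under 0.05. DESeq2 called Tnf besides Ccl3 and Ccl12. At 6 h all 7 were again negative, from -0.54 to -0.15, and 0 of the 7 were called by edgeR or DESeq2. There edgeR called 0% of all genes, and Ccl3 and Tnf had an unadjusted p under 0.05, as had 853 of 14906 genes. Ccl3 was lower in the hippocampus in 16 of 23 mice at 6 h, with -0.34 ± 0.10 (adjusted p = 0.53). The immediate early and stress list had 20 of 21 fold changes negative at 48 h, a median of -0.29 beside -0.01 over all genes, and none called. A further list held regulators of the transcription and RNA decay of these cytokines. All 10 of its tested genes were negative, with a median of -0.34. Nfkbiz, an atypical member of the NF-kB inhibitor family, was called at -0.72 ± 0.13 (edgeR adjusted p = 0.0234). The part of these genes in the region difference was not tested.

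Mice differed among themselves within a group, and for some of these genes both regions of a mouse differed together. Each library's log2 level was set against its group mean, and the 2 regions were then compared over 48 mice as a description, since both libraries of a mouse share a sort number. For Ccl3 the correlation between hippocampus and hemisphere was r = 0.797 (Spearman 0.677), and 0.710 without the 2 mice farthest from the median. It was 0.825 at 6 h and 0.774 at 48 h, and 0.725 in the 29 mice with sort numbers in the young range and 0.852 in the other 19. Over 11341 genes the median r was 0.038, and Ccl3 ranked 5.

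Ccl4 had r = 0.652 (Spearman 0.586, 0.606 without the 2 farthest mice; rank 18). Tnf had r = 0.616 (Spearman 0.534, 0.512 without the 2 farthest; rank 26), with 0.593 at 6 h and 0.637 at 48 h. For Tnf the value was 0.308 in the sort range of the young mice and 0.863 outside it. Ccl12 had 0.344, Ccl2 0.282, Tnfsf13b 0.254 and Il1a 0.121. The 19 tested immediate early and stress genes had r between 0.309 and 0.829 with a median of 0.539, led by Egr1 at 0.829 and Atf3 at 0.803.

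**Figure D5:**
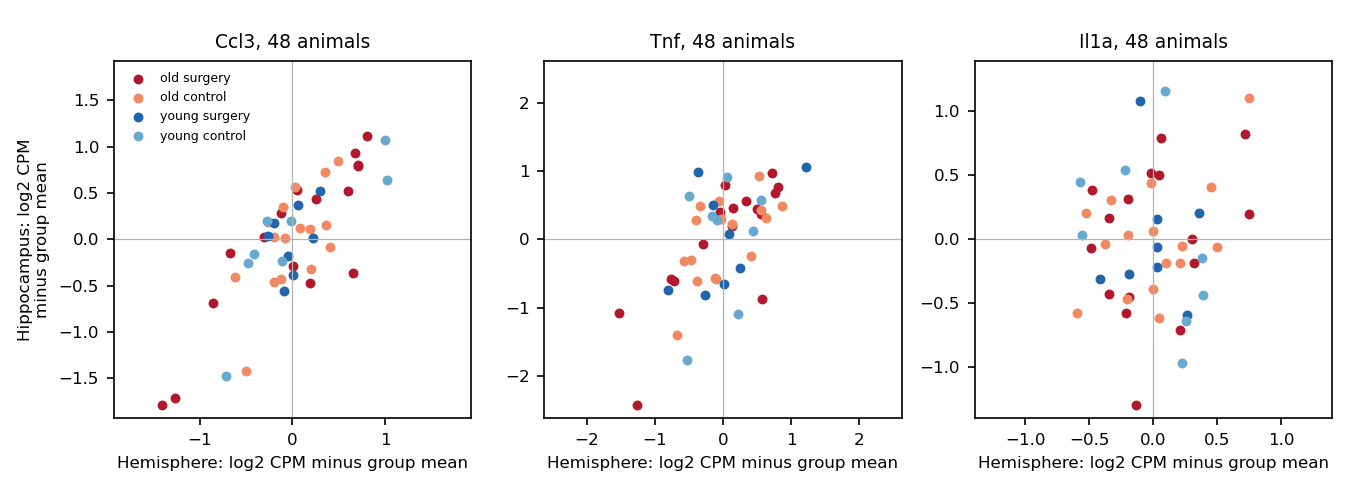
Each mouse's deviation from its group mean in log2 CPM, hemisphere on the x axis and hippocampus on the y axis, for Ccl3, Tnf and Il1a over 48 mice. Points for Ccl3 follow a line (r = 0.797), those for Tnf less tightly (r = 0.616), and those for Il1a scatter (r = 0.121).

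Within a region, the neighbours Ccl3 and Ccl4 deviated most alike, with r = 0.892 in the hemisphere (Spearman 0.869) and 0.926 in the hippocampus (Spearman 0.914). The 21 pairs among the 7 genes had a median r of 0.322 in the hemisphere and 0.599 in the hippocampus, beside medians of 0.005 and 0.004 over all gene pairs. Tnfsf13b stood apart, with r of 0.035 to Ccl3 in the hemisphere and 0.01 in the hippocampus. Among genes outside the 10, those most like Ccl3 in both regions were Egr1 (lower r of the 2 regions 0.810), Atf3 (0.806) and Nfkbiz (0.777). Those most like Ccl4 were Nfkbiz (0.820), Atf3 (0.819) and Egr1 (0.819), and those most like Ccl12 were Eif1 (0.602), Gem (0.489) and Tmem88 (0.473). These likenesses are descriptions over 48 mice. The r of the 7 genes with library depth lay between -0.295 and 0.251. With the median deviation of the 9 microglial markers, r ran from -0.362 (Ccl4) to 0.255 (Tnfsf13b) in the hemisphere. In the hippocampus it ran from -0.014 (Ccl4) to 0.556 (Il1a), with 0.435 for Tnfsf13b and 0.391 for Tnf. The part of microglial marker content in these levels was not tested.

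The median deviation of the 19 tested immediate early and stress genes was also set against each gene over the 48 mice, with r of 0.773 in the hemisphere and 0.803 in the hippocampus for Ccl3, and 0.753 and 0.870 for Ccl4. For Tnf it was 0.628 in the hemisphere and 0.609 in the hippocampus, and for Tnfsf13b -0.081 and 0.203. The part of dissociation in the levels of these genes was not tested.

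Levels at 6 h and 48 h stand side by side without a test, because the sort numbers of the 6 h and the 48 h mice do not overlap, so time and sort number cannot be told apart. In old controls Tnf averaged 14.3 ± 6.00 CPM at 6 h and 33.5 ± 10.4 CPM at 48 h in the hemisphere (n = 8 each), and 14.5 ± 5.71 CPM at 6 h and 27.4 ± 11.1 CPM at 48 h in the hippocampus. In young controls it averaged 7.83 ± 2.70 CPM at 6 h and 12.3 ± 3.62 CPM at 48 h in the hemisphere (n = 4 each). Ccl2 in old controls averaged 20.7 ± 7.06 CPM at 6 h and 50.9 ± 18.7 CPM at 48 h in the hemisphere. Ccl3 differed in direction by age. In the hemisphere it averaged 79.6 ± 14.5 CPM at 6 h and 124.3 ± 32.7 CPM at 48 h in old controls. In young controls it averaged 83.3 ± 46.8 CPM at 6 h and 57.8 ± 32.9 CPM at 48 h in the hemisphere, and 82.35 ± 49.8 CPM and 42.3 ± 14.4 CPM in the hippocampus. Tnfsf13b in old controls averaged 12.6 ± 3.12 CPM at 6 h and 13.3 ± 3.35 CPM at 48 h in the hemisphere, within its spread.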

How the data were processed

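RNA of 96 libraries was measured, and the members and gene lists were chosen with earlier results of these data known. The deposited values are estimated counts per gene model, whole numbers with no normalisation seen, per the file headers and values; in 6 libraries at 6 h values of 1 make up at most 24.7% of values of 1 to 3, against at least 42.7% elsewhere, so the values are not raw counts as the design had assumed. Build mm10, R 4.2.1 and DESeq2 1.36.0 are named per the submitters' processing notes; aligner, counter and annotation: not given in the sources used here. Of the IDs, 54409 matched a gene name.

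Counts were tested with edgeR 4.0.16 in R 4.3.3 (TMM scaling, filterByExpr with a minimum count of 10, robust quasi-likelihood F-test) on all genes, with 1 fit per region and time over its 4 groups. Benjamini-Hochberg adjustment ran over all genes of a fit, and 0.05 was the threshold. Effects averaged over treatments or ages were added after the data were seen. Regions were compared per time with the animal as a block, pairing libraries by the sort number in their names. Replicate numbers were not taken to pair other groups. No set of pairs had every correlation of deviations above 0.1. The 48 region pairs did not either (-0.39 to 0.224, median 0.038), so this check cannot decide on pairing. CPM used TMM factors over all 96 libraries, and levels between genes were divided by exon length. Correlations used log2 CPM with a prior count of 2. No 2 libraries of a group were identical among 274 pairs. Animals are the replicates, and p-values for age and surgery measure the spread between them. In the region fits the animal block removes that spread, and p-values measure how the region difference varies between animals. Counting error limits the genes with few counts. The named genes are the 10 members, list genes that were called, and the 3 genes most like each of the 3 most abundant members. Scripts were tested on simulated data. Alternatives were DESeq2 1.42.0, its size factors, limma voom 3.58.1, no filter, a replicate block, the compared groups alone, sort numbers within the young range, and fits without the 15 largest gene models, the 6 uneven libraries or each animal.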

Additional observations from a re-analysis of the deposited data

Results flagged for a closer look

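Of 112 groups of 4 to 9 libraries tested across the 7 genes, 7 held a library far from the others by Dixon's test at 95%, and chance flags about 1 in 20 groups. None of the 7 was one of the libraries with uneven low values. Ccl2 was lowest at 6.21 CPM in old control hippocampus at 6 h (replicate 8) and at 10.02 CPM in old surgery hemisphere at 6 h (replicate 7). Ccl2 was highest at 38.8 CPM in old surgery hippocampus at 6 h (replicate 3) and at 36.3 CPM in young surgery hippocampus at 48 h (replicate 1). Ccl3 was highest at 63.9 CPM in young control hippocampus at 48 h (replicate 2). Ccl12 was highest at 69.5 CPM in old surgery hippocampus at 6 h (replicate 2) and lowest at 21.3 CPM in young surgery hemisphere at 6 h (replicate 3), a group that spans a narrow range.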

How the results depend on the processing

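Counts of the 7 tested genes called changed as follows, and the cause was not tested. Limited to sort numbers within the young range, the averaged age comparison at 48 h called 1 gene (Tnf) in each region, against 3; the age comparison in the hippocampus at 6 h called 0, averaged or among controls, against 1; and the region comparison at 48 h called 0, against 2, with fewer mice. With the replicate block, the averaged age comparison at 48 h called 1 in the hemisphere (Tnfsf13b) and 0 in the hippocampus, and at 6 h in the hippocampus 0, averaged or among controls; the pairing does not come from the labels, and Tnf then had adjusted p = 0.142 in the hemisphere and 0.136 in the hippocampus. With no animal block, so without pairing the regions of a mouse, the region comparison at 48 h called 0 (edgeR adjusted p = 0.436 for Ccl3 and 0.17 for Ccl12). DESeq2 called 5 (averaged age, hemisphere 48 h), 4 (averaged age, hippocampus 48 h), 3 (region, 48 h), 2 (averaged age, hippocampus 6 h), and 1 where edgeR called 0 in averaged age in the hemisphere at 6 h, controls in the hemisphere at 48 h, and after surgery in both regions at 48 h. Limma voom (Tnf) and no filter (Tnfsf13b) called 1 in averaged age in the hippocampus at 48 h, and no filter called 2 in the hemisphere, where Ccl3 lost its call (adjusted p = 0.14). Fits of the compared groups alone called 0 for controls in the hippocampus at 6 h. Without the uneven libraries the hippocampus at 6 h called 0 for age, averaged or among controls. Il1a was the 1 gene called for averaged surgery in the hippocampus at 6 h with DESeq2, with its size factors, without the uneven libraries and without the 15 largest models. Leaving out single animals gave 2 to 5 (averaged age, hemisphere 48 h), 1 to 4 (hippocampus 48 h), 1 (hippocampus 6 h) and 0 to 1 (hemisphere 6 h); 0 to 3 for region at 48 h; 0 to 1 for controls in the hippocampus at 6 h, after surgery in the hippocampus at 48 h and averaged surgery in the hippocampus at 6 h; and 0 elsewhere. Among single-gene fold changes, 1649 kept their side of the threshold under the other settings, 13 gained and 25 lost a call. None that was called as reported or under the other setting changed direction. Changes of direction were not counted where neither fit called the gene. Over all genes the counts ran from 0 to 78 in edgeR as reported, up to 94 with no filter, 81 without the 15 largest models and 216 without single animals, and from 0 to 152 in DESeq2. Groups of 4 young mice and few counts for Il1b, Il6 and Cxcl2 limit what could be seen.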
